A study of Caenorhabditis elegans with 2 samples.

Results

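Dense runs are stretches of the Caenorhabditis elegans genome in which 6 or more SCC-1 peaks followed each other, with no more than 5000 bp between the midpoints of neighbours on the same chromosome. The authors' list from chromatin immunoprecipitation and sequencing (ChIP-seq) of SCC-1 held 6780 peaks, and 800 of them, or 11.8%, lay in 115 such runs. The other 5980 peaks comprised 3882 in runs of 2 to 5 and 2098 with no neighbour within 5000 bp, here called single peaks. The members were chosen by the positions of the peaks, so the closeness of these peaks, the number of runs and their share of the list describe the rule and are given without a test. The study had 1 ChIP library and 1 input DNA library, both from hermaphrodites of strain fem-2(b245), genotype fem-2(b245)III, kept at 20 °C. Both libraries carry that mutation, in a gene that C. elegans needs for male development, and neither comes from wild-type worms. The labels give the stage as young adults with a germline, whereas the growth protocol speaks of gravid adults. Whole worms were used, so the peaks join all tissues and cell cycle states.

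SCC-1 is a kleisin, the subunit that bridges the SMC proteins and closes the ring of the cohesin complex. Cohesin holds sister chromatids together after replication and also forms loops along chromosomes in interphase. In C. elegans SCC-1 serves mitotic cells, other kleisins serve meiosis, and COH-1 is a further kleisin found in somatic cells. The antibody was a rabbit polyclonal against a part of SCC-1. The protocol describes it as affinity purified, while its record says crude.

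All positions are those of the authors on WormBase WS220. Each peak also carries the authors' score from the peak caller, whose scale is not named. Of all peaks, 1182 have a score of exactly 3100, so the score does not order the top of the list. The score was used to describe and rank peaks within this list. With 1 ChIP library there was no spread between replicates, and the read depth behind a peak is unknown. Peaks are not replicates of a condition, so differences between dense runs and other peaks are given without p-values and are read against intervals for counting error. These 95% intervals, exact binomial for shares and from order statistics for medians, treat peaks as independent, whereas members of a run enter the count together.

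Most dense runs were short. Of the 115 runs, 58 had 6 peaks, 29 had 7, 14 had 8, 8 had 9 and 5 had 10. The longest, on chromosome V, had 15 peaks, and no run had a size from 11 to 14. Just below the limit of the rule, 98 runs had 5 peaks and together held 490 peaks, against 348 peaks in the 58 runs of 6. The peaks on either side of this limit were alike in width. Their median was 1235 bp in runs of 6, with a 95% interval from 1157 to 1318 bp, and 1295 bp in runs of 5, with an interval from 1203 to 1378 bp. Their median scores were 394 and 425, with intervals from 337 to 485 and from 333 to 507. Another 33 of the 685 distances inside dense runs lay between 4500 and 5000 bp. Outside, 20 of the 115 runs had a further peak at 5500 bp or less from an outermost member, and the shortest such distance was 5030 bp.

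**Figure D1:**
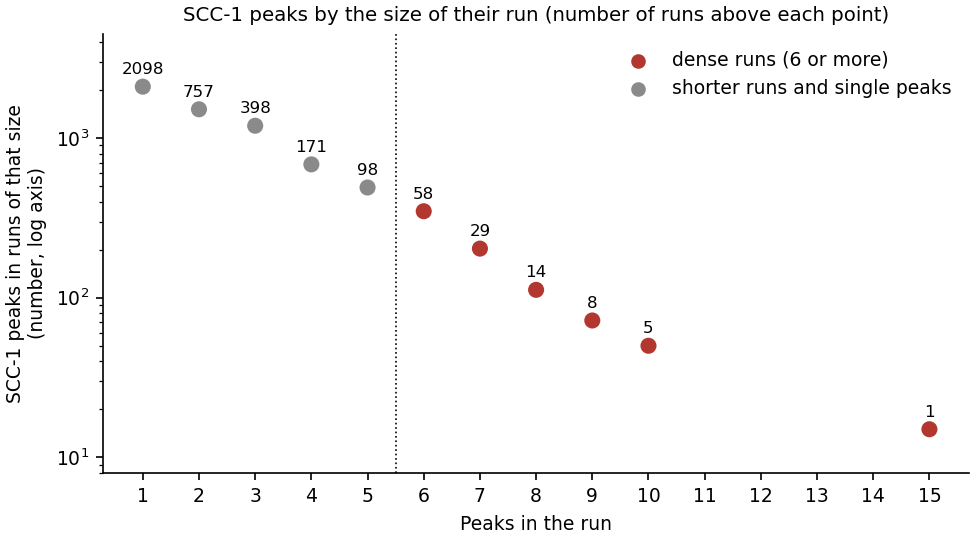
Number of SCC-1 peaks (log axis) against the number of peaks in their run, with single peaks at 1 and the number of runs printed above each point. Dense runs are red and lie right of the dotted line. The number falls with run size without a step at the limit, to 50 peaks in the 5 runs of 10, and the run of 15 peaks stands alone.

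A dense run typically measured less than 20326 bp, the upper quartile of the span between the start of its first and the end of its last peak. The median span was 16865 bp and the lower quartile 13928 bp. The shortest run spanned 9613 bp and the longest 28940 bp. Together the runs spanned 1995 kb, or 1.99% of the length between the outermost peaks of the chromosomes, and held 10.8% of the length covered by all peaks. Peaks filled 64.4% of the run spans and 10.8% of the rest, a contrast that the rule itself makes. Between single runs this share ran from 39.1% to 90.4%, with a median of 64.1%. The run filled the most, named after its value was seen like the next, had 6 peaks on chromosome I from 7924679 to 7942546. The run filled the least had 6 peaks on chromosome I from 4443788 to 4460433.

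Neighbours within dense runs were separated by short stretches without a peak. The median distance between midpoints was 2499.5 bp, with quartiles of 1803 and 3367 bp. The gap from the end of a peak to the start of the next had a median of 811 bp and ranged from 1 to 4199 bp. Of the 685 gaps, 84, or 12.3%, were 100 bp or shorter, and 257, or 37.5%, were 500 bp or shorter. In runs of 2 to 5 the median distance between midpoints was 2659 bp and the median gap 841 bp. There 274 of 2458 gaps, or 11.1%, were 100 bp or shorter, and 904, or 36.8%, were 500 bp or shorter. Distances and gaps in dense runs were thus close to those in shorter runs. The same limit of 5000 bp cuts both sets of distances, so this likeness is not read as a result. Some neighbours were called as separate peaks across a very narrow gap. When any peaks separated by 500 bp or less were first merged, the same rule found 119 members in 18 runs.

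The run on chromosome V from 16786455 to 16815394 had both the most peaks and the longest span. Its 15 peaks were between 689 and 2059 bp wide, with a median of 1186 bp, and filled 64.5% of its 28940 bp. Their scores ran from 63.7 through a median of 249 to 3100. The last peak, from 16813680 to 16815394, had the highest score and a width of 1715 bp. The widest peak, from 16791984 to 16794042, was the fourth of the run, with a score of 2515, and the next peak, from 16794240 to 16796113, reached 2458. The other 12 peaks had scores from 63.7 to 684. This run therefore held 3 high peaks, a pair near its start and another at its end, among low ones.

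The 5 runs of 10 peaks lay on 4 chromosomes. On chromosome III, from 4911751 to 4939580, the scores ran from 56.8 to 3100, with a median of 584, and the peak of highest score, from 4916494 to 4918959, was also the widest at 2466 bp. On chromosome II, from 11572673 to 11600272, they ran from 118 to 3100, with a median of 726. This run held a pair at 3100 only 50 bp apart, from 11577259 to 11579743 and from 11579794 to 11583202, and the second of them was its widest peak at 3409 bp. On X, from 160955 to 185045, the scores ran from 116 to 3100, with a median of 545, and reached 3100 in the first and the fourth peak.

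The remaining runs of 10 differed most in how much they were filled. On chromosome I, from 3805421 to 3827108, peaks filled 70.0% of the span, the highest share among runs of 10 or more. Its scores ran from 51.9 to 3002, with a median of 369. On chromosome II, from 2030318 to 2049884, peaks filled 44.7%, the lowest share among runs of 10 or more. The scores of that run were also low, from 56.7 to 1593 with a median of 120, and its median width was 767 bp.

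The list of the 10 runs with the most peaks was completed by 4 runs of 9. They lay on chromosome I from 5118450 to 5146042, from 3461560 to 3485290 and from 4911348 to 4934300, and on chromosome III from 7140035 to 7163164. Their median scores were 955, 402, 210 and 275 in this order. In the run on chromosome III the first and the last peak had a score of 3100, and the 7 between them had scores from 74.8 to 958. Chromosome IV had no run above 8 peaks, and the longest span among its runs of 8 was that from 7769944 to 7791873, with scores from 61.0 to 3100.

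**Figure D2:**
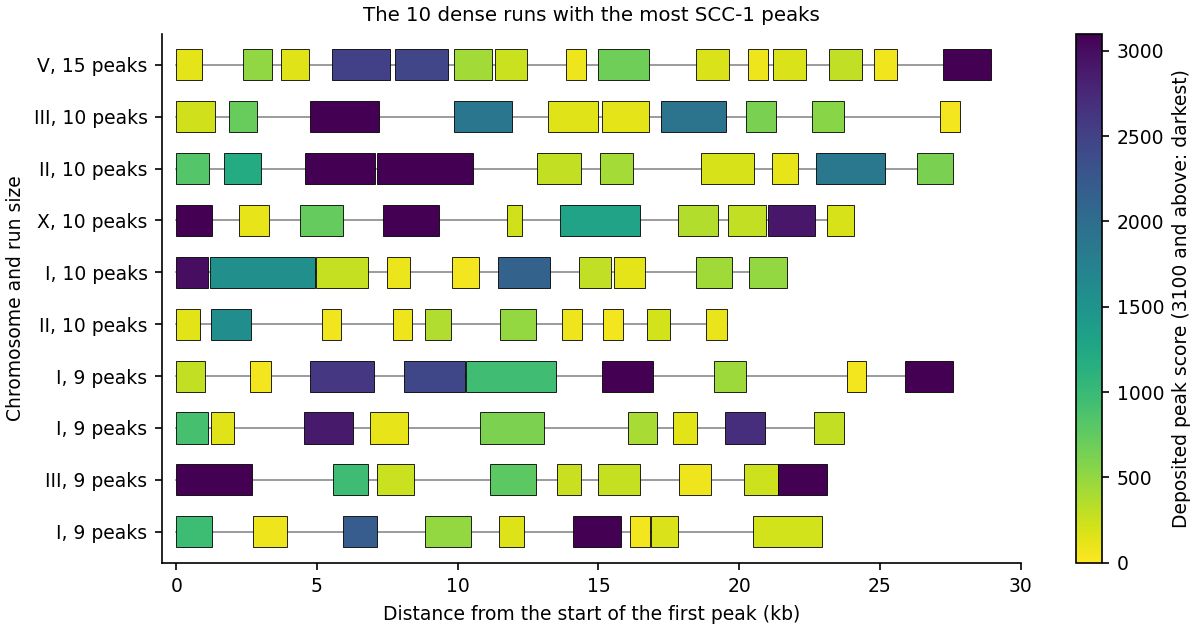
The 10 dense runs with the most peaks, each drawn to scale in kb from the start of its first peak. Boxes are SCC-1 peaks and darker boxes have higher deposited scores. In the top row, the run of 15 peaks on chromosome V, 3 dark peaks stand among 12 light ones, and 7 of the 10 runs hold at least 1 peak at 3100 or more.

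Most dense runs held peaks of both high and low score. In 82 of the 115 runs the lowest score fell in the lowest 25% of all peaks, at 147.9 or less, and the highest in the top 25%, at 2043 or more. At least 1 peak with a score of 3100 or more was present in 75 runs, or 65.2%. There was 1 such peak in 47 runs, 2 in 23 runs and 3 in 5 runs, and 40 runs had none. A group with more peaks is more likely to hold both low and high scores, so these counts depend on run size. It was not tested whether they differ from those of equally large groups drawn at random from the list. They are therefore not read as a trait of dense runs. In 7 runs no peak reached a score of 1000. The run with the lowest top score had 7 peaks on chromosome III from 850814 to 862547, with scores from 80.3 to 338. Between neighbours the scores were nearly unrelated, with a Spearman coefficient of -0.091 over the 685 pairs in dense runs and of -0.031 over the 2458 pairs in shorter runs. The pairs share peaks and come from 1 library, so these coefficients are descriptions. Neighbours with midpoints within 5000 bp limit each other's width, and score rose with width, as given below. The rule thus bears on these coefficients, which were not adjusted for width.

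Dense runs were concentrated on the chromosomes where SCC-1 peaks were dense. Chromosome III held 32 runs with 223 peaks and chromosome I held 30 runs with 209 peaks, together 54.0% of all members. Chromosome II held 21 runs with 144 peaks, chromosome IV 21 runs with 138 peaks, chromosome V 9 runs with 70 peaks and X 2 runs with 16 peaks. As a share of the peaks of each chromosome, membership was 16.0% on chromosome III, 14.2% on I, 12.8% on II, 11.6% on IV, 6.42% on V and 3.15% on X. The exact binomial 95% intervals of neighbours in this order overlapped from chromosome III to IV. The interval of chromosome V, from 5.04% to 8.04%, lay below that of chromosome IV, from 9.80% to 13.5%. The interval of X, from 1.81% to 5.06%, narrowly overlapped that of chromosome V.

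This order was the order of peak density, from 101.2 peaks per Mb on chromosome III to 28.7 on X. A fixed limit of 5000 bp takes in more neighbours where peaks are denser, so the order is a description of the rule applied to these densities. On X 3.15% of peaks were members, against 12.5% on the 5 autosomes, where the interval ran from 11.7% to 13.3%. Whether any chromosome had more runs than its density alone would give was not tested.

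**Figure D3:**
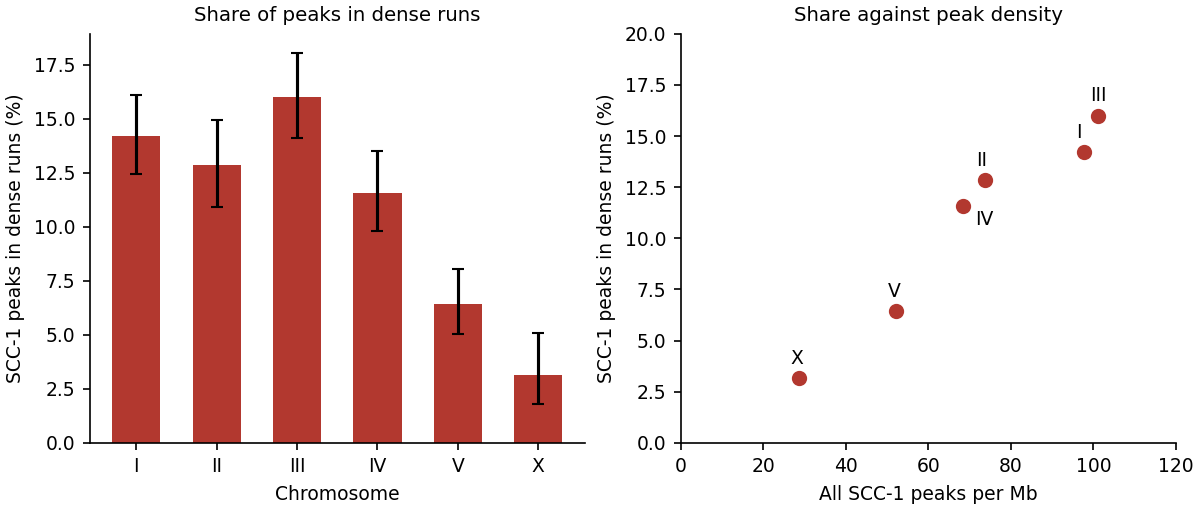
Left, share of the SCC-1 peaks of each chromosome that lay in dense runs (%), with exact binomial 95% intervals. Right, the same share against the density of all SCC-1 peaks per Mb, where the 6 chromosomes keep the same order on both axes, from X at 3.15% to chromosome III at 16.0%.

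Along the chromosomes, dense runs lay in both arms and centres, with some large parts empty. Arms were taken as 25% of each chromosome's span at either end, so arms and centres were equally long. The arms held 47 runs, or 0.939 per Mb, and the centres 68, or 1.36 per Mb. Peaks were also denser in the centres, at 74.0 per Mb against 61.5 in the arms. Whether the centres had more runs than their density alone would give was not tested. As a share of peaks, 335 of 3078 arm peaks, or 10.9%, were members, against 465 of 3702 centre peaks, or 12.6%. The 95% intervals overlapped, from 9.80% to 12.04% in the arms and from 11.5% to 13.7% in the centres. On the autosomes alone the shares were 11.5% in the arms and 13.3% in the centres, with intervals from 10.4% to 12.8% and from 12.2% to 14.4%. The sign of the difference in share depended on where the arms were taken to end. Over all chromosomes, with arms of the outer 33% the share was 12.1% in the arms, against 11.2% in the centres. With arms of the outer 20% it was 10.3% in the arms, against 12.6% in the centres.

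Chromosome III had the highest share in any centre, 18.6%, with an interval from 15.9% to 21.5%. None of the 229 peaks in the left arm of chromosome V was a member, whereas 28 of the 205 in its right arm were, or 13.7%. Both runs of X lay in its left arm, where 16 of 184 peaks, or 8.70%, were members. No member lay among the 198 peaks of the X centre or among the 126 of the right arm. These limits cover counting error only.

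Some runs lay near each other, and whether they did so more often than random placement would give was not tested. Of the 103 windows of 1 Mb, 58 held the middle of at least 1 run. The fullest, on chromosome III from 5000001 to 6000000, held 6 runs with 41 peaks. Neighbouring runs of a chromosome were separated by a median of 381 kb, and 11 of 109 such pairs by 50 kb or less. The closest pair lay on chromosome I, where 6067 bp separated a run of 7 peaks, from 3781442 to 3799353, from the run of 10 peaks described above. Within 500 kb of the outermost peaks of the chromosomes, 64 of 445 peaks, or 14.4%, were members, against 736 of 6335, or 11.6%, elsewhere. The intervals, from 11.3% to 17.99% and from 10.8% to 12.4%, overlapped. A run of 7 peaks on chromosome V, from 20836899 to 20852551, included the last SCC-1 peak of that chromosome.

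**Figure D4:**
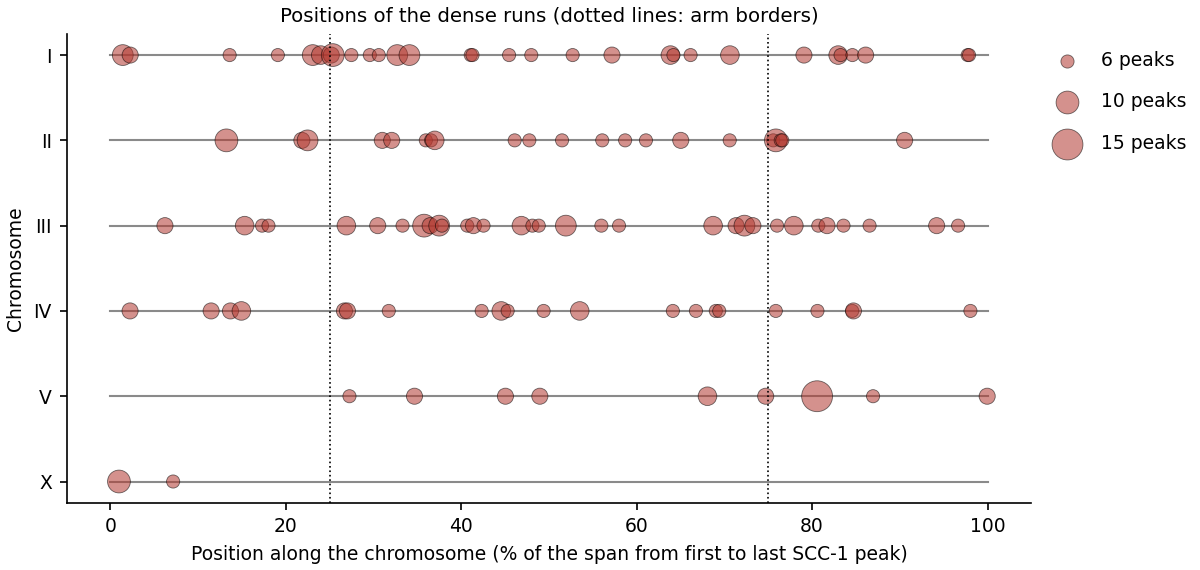
Positions of the 115 dense runs along the 6 chromosomes, in percent of the stretch between the outermost SCC-1 peaks. Larger circles have more peaks and dotted lines mark the arm borders. The 2 runs of X lie in its left arm, and the left arm of chromosome V has none.

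Peaks in dense runs were about as wide as other peaks, but the widest peaks of the list lay elsewhere. Neighbours do not overlap and their midpoints lie within 5000 bp, so the mean width of a pair of neighbours cannot exceed 5000 bp, and the rule itself limits width. The median width was 1237 bp in dense runs and 1216 bp outside them, with 95% intervals from 1185 to 1319 bp and from 1194 to 1241 bp. The median was 1247.5 bp in runs of 2 to 5 and 1149 bp among single peaks, so the sign of the difference depended on the peaks set against the dense runs. Quartiles were 903 and 1913 bp in dense runs, against 856 and 2011 bp outside.

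At the upper end, 18 of 800 members, or 2.25%, were 5 kb or wider, against 285 of 5980 other peaks, or 4.77%. The intervals, from 1.34% to 3.53% and from 4.24% to 5.34%, did not overlap. In runs of 2 to 5, 101 of 3882 peaks were that wide, a share with an interval from 2.12% to 3.15%, and among single peaks 8.77% were. The widest member, 6656 bp, opened a run of 7 on chromosome III and lay from 5008738 to 5015393, with a score of 2906. The next peak of that run began after a gap of 2 bp. The widest peak outside dense runs measured 16522 bp.

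The median width in dense runs lay above that of other peaks on some chromosomes and below it on others. The median was higher in dense runs than outside on chromosome II, 1436 against 1272 bp, and on X, 1307 against 814 bp. It was lower on chromosome I, 1242 against 1269 bp, on chromosome III, 1194 against 1289 bp, on chromosome IV, 1184 against 1256 bp, and on chromosome V, 1181 against 1195.5 bp. The intervals overlapped on all 6 chromosomes, and that of the X members, from 755 to 1665 bp, held that of the other X peaks, from 796 to 842 bp. The value of X rests on 16 peaks in 2 runs, and those runs differed. The run of 10 had a median width of 1384.5 bp and a median score of 545. The run of 6, from 1260789 to 1273067, had a median width of 781 bp and a median score of 82.3.

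Under the rule, high scores were less frequent in dense runs. The median score was 431 in dense runs, with a 95% interval from 345 to 504, and 509 outside, with an interval from 473 to 551, and these intervals overlapped. The lower quartiles were close, 146 and 148, whereas the upper quartile was 1541 in dense runs and 2117 outside. A score of 3100 or more was reached by 108 members, or 13.5%, against 1131 other peaks, or 18.9%. The intervals, from 11.2% to 16.1% and from 17.9% to 19.9%, did not overlap. The share was 16.1% in runs of 2 to 5, with an interval from 14.96% to 17.3% that overlapped that of dense runs, and 24.1% among single peaks. On each of the 5 autosomes the share was lower in dense runs than outside. On chromosome V the share was 8.57% in dense runs, or 6 of 70 peaks, against 18.1% outside, with intervals from 3.21% to 17.7% and from 15.8% to 20.6%. On chromosome III it was 14.8% against 17.8%, and on X 12.5% against 11.8%, and the intervals overlapped on all 6 chromosomes. When runs were built instead from gaps of 3500 bp or less between the end of a peak and the start of the next, a rule that does not limit width, the share was 16.2% in dense runs and 18.6% outside, with overlapping intervals from 13.96% to 18.7% and from 17.6% to 19.6%. The median scores were then 502 in dense runs and 492 outside, also with overlapping intervals.

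Width and score rose together in both groups, with a Spearman coefficient of 0.759 across the members and 0.758 across the other peaks. All peaks were therefore also compared within 4 classes of width, each with 25% of the list. The median score of dense-run peaks was lower than that of the others by more than the counting error in 2 of the 4 classes. It was 228 against 310 in the second class, with intervals from 188 to 274 and from 293 to 335, and 2609 against 3100 among the widest, where the upper bound in dense runs was 3030.5. It was 95.5 against 105 among the narrowest and 631 against 812 in the third class, and in both the intervals overlapped. In the widest class the median width was 2761 bp in dense runs and 3003.5 bp outside. The intervals, from 2585 to 2932 bp and from 2923 to 3107 bp, narrowly overlapped. The rule limits width, so the scores of this class were not compared at equal width.

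**Figure D5:**
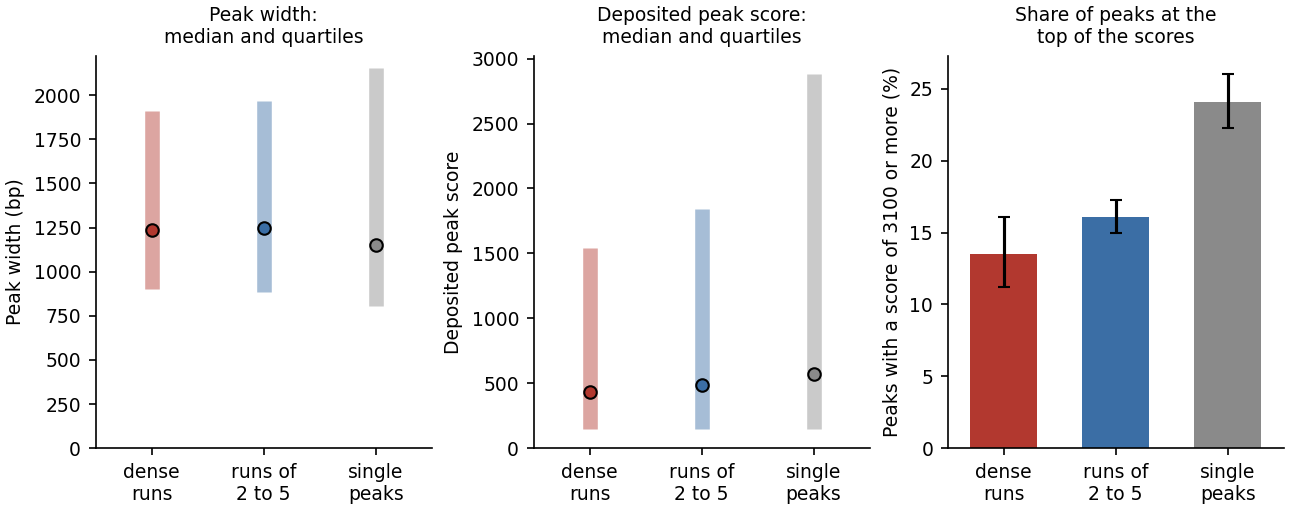
Median (point) and quartiles (bar) of peak width in bp and of the deposited score, and the share of peaks with a score of 3100 or more (%) with exact binomial 95% intervals, for the 800 peaks in dense runs, the 3882 in runs of 2 to 5 and the 2098 single peaks. Median widths lie between 1149 and 1247.5 bp, while the share at 3100 or more is 13.5%, 16.1% and 24.1%.

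First and last peaks of dense runs and inner peaks are given side by side as a description, since the rule bears on both width and, through width, score. Inner peaks have a neighbour within 5000 bp on both sides and outer ones on 1 side only, so the rule limits the width of inner peaks more. Among the 230 first and last peaks of dense runs, 19.1% had a score of 3100 or more, with an interval from 14.3% to 24.8%, against 11.2% of the 570 inner peaks, with an interval from 8.76% to 14.1%. The order was the same in runs of 3 to 5, with 16.5% of first and last peaks and 13.6% of inner peaks, although the intervals there, from 14.5% to 18.6% and from 11.6% to 15.9%, overlapped. Peaks of 5 kb or wider made up 4.78% of the first and last peaks of dense runs and 1.23% of the inner ones, with intervals from 2.41% to 8.40% and from 0.495% to 2.51% that narrowly overlapped. The shares of top scores were not compared at equal width.

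A second peak list deposited with the series names COH-1 as its target, in the same strain and stage. Its library is not among the samples here, so its peaks are given as the authors' list. That list held 11301 peaks with a median width of 298 bp. It was not used to choose the members. At least 1 base of 175 of the 800 dense-run peaks, or 21.9%, was covered by a COH-1 peak, with an interval from 19.1% to 24.9%. Outside dense runs this held for 1555 of 5980 peaks, or 26.0%, with an interval from 24.9% to 27.1%. On the autosomes alone the shares were 22.3% and 23.8%, with overlapping intervals from 19.5% to 25.4% and from 22.7% to 24.98%. In the narrowest of the 4 width classes, 9.88% of dense-run peaks and 20.8% of the others met COH-1. The intervals there, from 5.75% to 15.5% and from 18.8% to 22.9%, did not overlap. On the autosomes that class had 10.2% and 14.9%, with overlapping intervals. In all wider classes the intervals overlapped.

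On X the overlap differed most between the groups. None of its 16 dense-run peaks met a COH-1 peak, which allows a share of up to 18.8% if the peaks are taken as independent, whereas 247 of the 492 other X peaks did, or 50.2%. Among the other X peaks of the left arm, 71 of 168, or 42.3%, met one, with an interval from 34.7% to 50.11%. The X result rests on 2 runs.

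Overlap with COH-1 was uneven between runs. In runs of 6, 17.0% of peaks met a COH-1 peak, against 24.3% in runs of 5. The intervals, from 13.2% to 21.3% and from 20.6% to 28.3%, narrowly overlapped. The share was 26.6% in runs of 7, 30.4% in runs of 8, 26.4% in runs of 9 and 14.0% in runs of 10. In 52 of the 115 runs no peak met a COH-1 peak, in 36 runs 1 or 2 did, and in 27 runs 3 or more did. In 21 runs at least 50% of the peaks did. COH-1 peaks covered 7.83% of the run spans and 5.67% of the rest of the mapped length. By the rule, SCC-1 peaks fill 64.4% of the run spans and 10.8% of the rest, so these shares are not at equal SCC-1 content. Whether COH-1 peaks favour dense runs was not tested. Within the runs they covered 8.91% of the SCC-1 peaks and 5.86% of the gaps between them, whereas SCC-1 peaks outside dense runs were covered to 12.9%. On the autosomes alone the peaks were covered to 9.06% in dense runs and to 12.01% outside. The runs of 10 showed how uneven the overlap was between runs. The run on chromosome I had 7 of 10 peaks that met COH-1, and the others, on chromosomes II, III and X, had none. The run of 15 on chromosome V had 2. Of the 8 runs of 9, 5 had none, among them that on chromosome I from 3461560 to 3485290. Among the other 3, that on chromosome III from 7140035 to 7163164 had 8, that on chromosome I from 4911348 to 4934300 had 7 and that on chromosome I from 5118450 to 5146042 had 4.

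In 2 runs, named after their values were seen, every peak met a COH-1 peak. They lay on chromosome II from 13817349 to 13830083, with 7 peaks, and on chromosome IV from 7384538 to 7398058, with 6. The run on chromosome II was also the one whose lowest score, 1106, was the highest of all runs. COH-1 peaks covered 46.7% of its span and 73.8% of the span of the run on chromosome IV.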

How the data were processed

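Peak positions and scores are those the authors deposited. Reads were handled with BWA on build ce10, per the submitters' processing notes, and peaks were called with MACS on WormBase WS220, per the file headers. The COH-1 list names MACS v2. For SCC-1 no version, threshold or use of the input is stated in the sources used here. The deposited score per peak has no named scale. With no read counts at hand the depth is unknown, and intervals cover counting error only.

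Peaks were sorted by chromosome and midpoint and joined into runs when midpoints lay 5000 bp or less apart, and runs of 6 or more were kept. All 800 members were used without a filter. Overlap with COH-1 meant 1 bp or more. Shares carry exact (Clopper-Pearson) 95% intervals and medians carry order-statistic 95% intervals. The share of 0 for COH-1 overlap on X carries the upper bound of its exact interval, whereas shares of 0 for membership carry no limit. No test was run, since there is 1 ChIP library. Named were the 10 runs with the most peaks (ties by span), the longest run of each chromosome, the extremes of span and filling, and their widest and highest-scored peaks; runs named as extremes of the full list for filling, lowest or highest scores, closeness and position at a chromosome end were added after their values were seen. The members and lists were chosen with earlier results of these data known. Gene annotation and genome sequence of WS220 were not used here. Run building and overlap counting were tested on simulated data. Python 3.11.15, numpy 2.4.6, pandas 2.3.3, scipy 1.17.1 and matplotlib 3.10.9 were used.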

Additional observations from a re-analysis of the deposited data

How the results depend on the processing

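The 800 members in 115 runs became 499 in 73 runs with a limit of 4000 bp, 1290 with runs of 5 or more, 249 with runs of 8 or more, 119 when peaks separated by 500 bp or less were merged and 26 in 4 runs in the top 50% of peaks by score. With 6000 bp they were 1189, and with 3500 bp from end to start 974. The order of the chromosomes changed: chromosome V had 0.768% and X 1.27% after merging, both had 0 in the top 50%, and the highest share lay on chromosome I with 4000 bp and on II in the top 50%. The difference between X and the pooled autosomes, -9.35 percentage points, was -4.55 with 4000 bp, -15.3 with 6000 bp, -13.97 with runs of 5, -1.84 with runs of 8, -0.810 in the top 50%, -12.1 from end to start and -0.938 after merging. Arms minus centres, -1.68 points, was 0.0275 with 4000 bp, 0.202 in the top 50% and 0.906 with arms of 33%. It stayed negative elsewhere, at -2.29 with arms of 20%, -2.13 with 6000 bp and -1.06 after merging. It was -3.61 with runs of 5, -0.062 with runs of 8 and -3.52 from end to start. The difference in median width, 21 bp, was -6 bp with 4000 bp, -35 bp with runs of 8, -450.5 bp in the top 50%, -90.5 bp after merging, -10.5 bp against runs of 2 to 5 and 131.5 bp from end to start. Median scores differed by -78.5, a value that became -510 in the top 50% and 9.97 from end to start, where the limit does not depend on width. The 13.5% of members at a score of 3100 or more became 30.8% in the top 50%, against 36.6% outside, and 16.2% from end to start, against 18.6% outside. The share met by COH-1, 21.9%, was 6.38% when 50% of the peak had to be covered, against 9.83% outside (6.51% and 8.58% on the autosomes, with overlapping intervals), and 13.6% with the top 50% of COH-1 peaks, against 19.1% outside. The cause of these changes was not tested. The comparisons with runs of 2 to 5, with single peaks and on the autosomes, and the alternatives for the share at 3100, were chosen after seeing the data. Of 42 shares of single chromosomes, 36 moved by more than counting error. Other distances or run sizes on the same peaks can only lower or only raise a share, so much of this movement was set in advance. Counting error does not measure such a change of rule. No paired analysis was possible because only the ChIP library has a peak list, and no test was run.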
